A study of Mus musculus with 47 samples.

Results

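The levels of 10 genes of glucose uptake and glycolysis were followed across 47 Affymetrix arrays of mouse bone marrow blood cells. They are the glucose transporters Slc2a1 and Slc2a3, the hexokinases Hk1, Hk2 and Hk3, the phosphofructokinase subunits Pfkl and Pfkp, the phosphoglycerate kinase Pgk1, and the lactate dehydrogenase subunits Ldha and Ldhb. The members were chosen by symbol, as the probe sets that the platform annotation gives to exactly 1 of these symbols, which found 26 of 45101 probe sets and 10 of 18194 genes. The brightest probe set over all arrays stood for its gene, and its deposited intensity was used on the log2 scale.

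Each array held RNA from 2000 purified cells of adult C57Bl6 bone marrow, with no other treatment or allele named in the labels, and the 17 sorted populations carried only short names. There were 5 arrays of LMPP, 4 of MkE, 4 of PreB, and 3 apiece of ETP, GMP, MkP, PreCFUE, CFUE and ProE. The other groups, LTHSC, STHSC, GM, CLP, ProB, IgM+SP, CD4 and NKmature, had 2 apiece. The labels call the arrays biological replicates without saying whether they came from separate animals, so the p-values reflect only how far these arrays vary, which may be technical. They name neither sort markers nor ages in weeks.

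Glucose enters blood cells through facilitative transporters and is trapped by hexokinases as glucose-6-phosphate. Phosphofructokinase then makes the first step that commits the sugar to glycolysis, phosphoglycerate kinase makes ATP, and lactate dehydrogenase interconverts pyruvate and lactate. Most steps have several isoenzymes encoded by separate genes, and blood lineages are known to differ in which ones they use. Mature red cells have no mitochondria and live on glycolysis, and blood stem cells are known for a strong reliance on it.

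Array medians lay between 13.8 and 16.9 on the linear scale, and 46 of 47 arrays correlated best with another array of their own group. Arrays of several labels, among them ProB, PreB and LMPP, went against their label or split within it. The arrays labelled ProB had a mean natural killer list level of 10.12 and 10.36 (log2), against 11.91 and 11.95 in NKmature, while their B cell list stood at 7.20 and 4.80. PreB replicates 1 and 2 had a late neutrophil list level of 3.85 and 6.25, and replicates 3 and 4 of 10.35 and 10.88. LMPP replicates 1 to 3 stood at 4.10, 4.10 and 4.14 in this list and at 8.17, 7.69 and 7.16 in the early lymphoid list, whereas replicates 4 and 5 stood at 8.66 and 8.55 and at 9.30 and 9.43. IgM+SP (11.02 and 10.37), NKmature (10.77 and 10.90) and replicate 2 of ProB (10.41) were also high in this list, whereas CD4 (3.90 and 4.64) and CLP (4.79 and 5.27) were low. The LTHSC arrays differed in a list of dividing-cell genes (5.08 and 7.62) and in the erythroid list (5.21 and 6.84). The IgM+SP arrays differed in the myeloid list (7.52 and 4.92). Arrays also split into 3 classes by Xist and Eif2s3y, a female and a male transcript: 21 had only Xist, 19 only Eif2s3y and 7 both, and many groups lay wholly in 1 class. The part of these differences in the values that follow was not tested, except where a value within a class, or with the class as a block, is given. A block value for groups that share no class takes the class effect from PreB, LMPP and ETP, the groups that hold more than 1 class and whose arrays also differ otherwise. For such pairs, class and group cannot be told apart. They include MkE against LTHSC, ProE against CFUE, GM against GMP, GMP against MkE and CD4 against ETP. ProB and NKmature against CLP, and mature lymphocytes against erythroid cells, are also among them.

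All 10 genes were detected, meaning that at least 1 group mean lay above the median of all log2 values, 3.89. All 10 differed among the 17 groups by limma's F-test with Benjamini-Hochberg adjustment, at adjusted p from 3.9e-22 for Ldhb to 3.7e-10 for Pgk1. The same test was passed by 90.3% of the 13949 genes tested. The span of a gene is its highest minus its lowest group mean, and the median span over all tested genes was 2.11 log2 units. Slc2a1 spanned 6.80, at the 97.9th percentile, followed by Hk3 with 5.78, Hk2 with 5.45 and Pfkp with 5.37. Pgk1 spanned 1.65, at the 35.5th percentile, and Ldha 2.97, at the 72.2nd percentile. In bulk arrays of this kind, fewer cells that express a gene and less RNA per cell cannot be told apart.

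**Figure D1:**
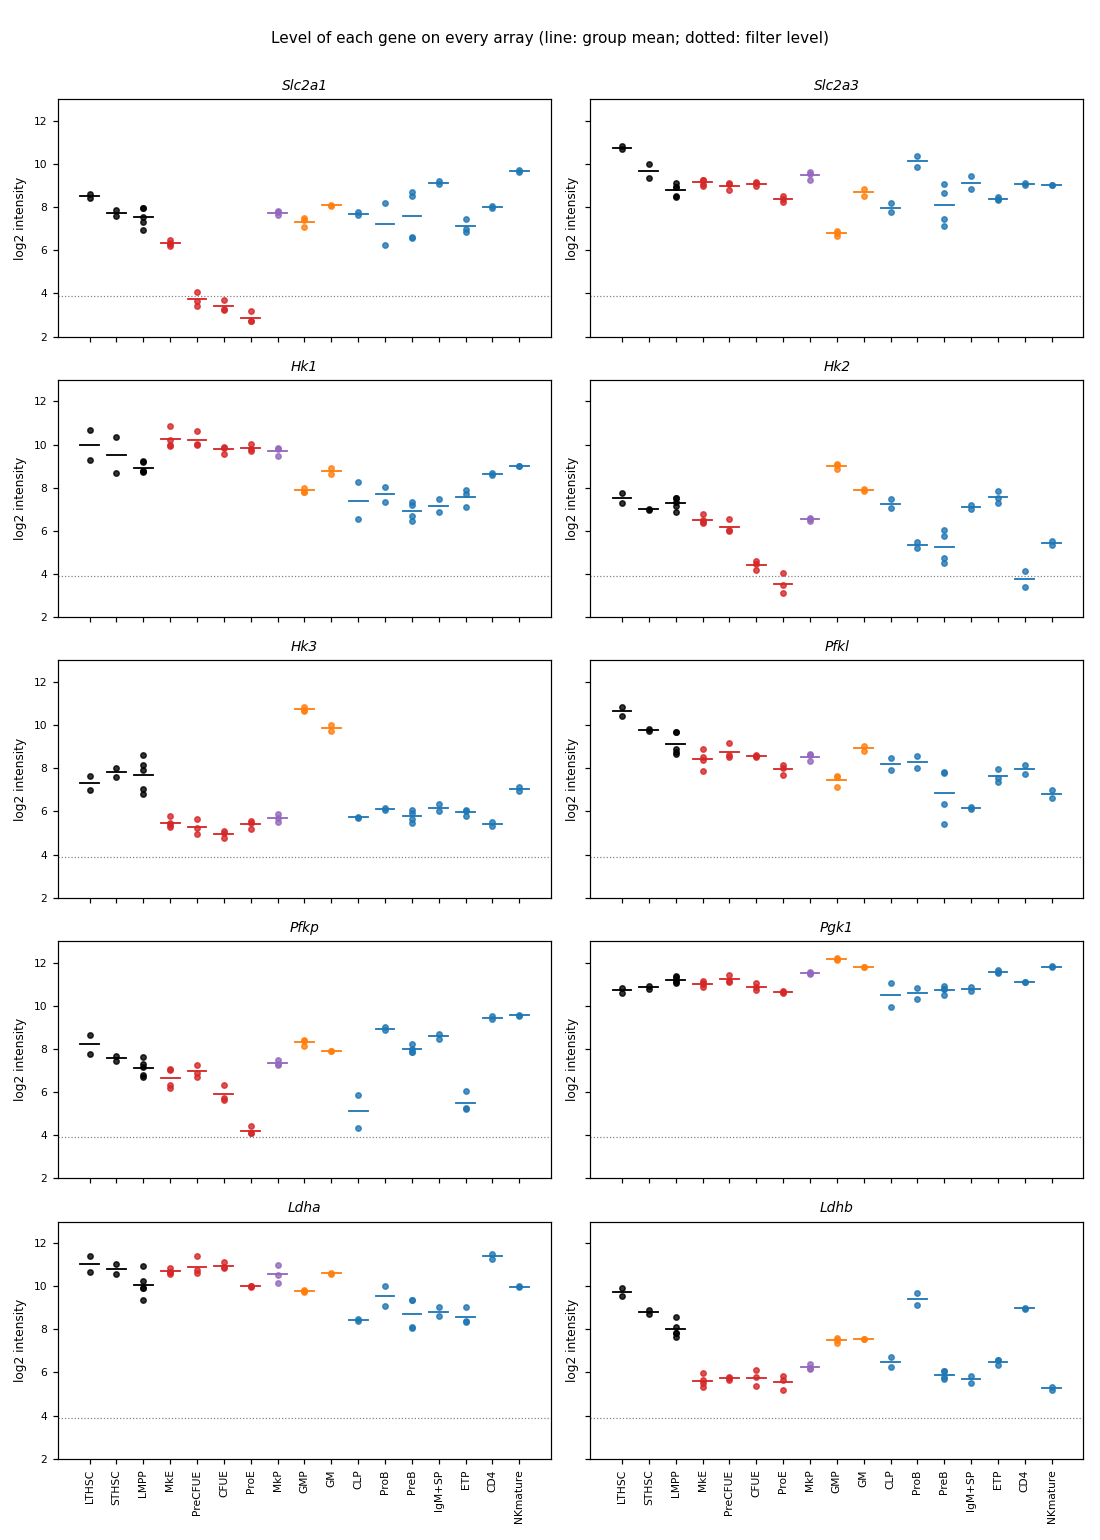
Log2 levels of the 10 genes (vertical axes) in every array of the 17 groups (horizontal axes), with 1 point per array, a bar at each group mean, a dotted line at 3.89 and colours for stem and LMPP (black), red cell path (red), MkP (purple), myeloid (orange) and lymphoid groups (blue). Slc2a1 dropped from 6.34 in MkE to 2.88 in ProE, Hk3 reached 10.72 in GMP, and Pgk1 kept within 1.65 log2 units over all groups.

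The starts of these genes differ in ACGTG, a form of the hypoxia response core, which is shown because Hif1a is the textbook regulator of glycolysis genes. RefSeq promoter windows (GRCm38.p6) of 250 bases before a start were found for 9 of the 10 genes, in 11 windows, and searched for ACGTG on both strands; 16.6% of all 32851 windows of that length hold it. A match was found in 5 of the 11, for Slc2a1, Hk2, Hk3, Pgk1 and the first start of Ldha, and none was found for Hk1, Pfkl, Pfkp, Ldhb or the second start of Ldha. Capitals mark ACGTG or its reverse complement CACGT. The windows below are those of Ldha on the plus strand (chr7:46845554-46845803), Ldhb on the minus strand (chr6:142507958-142508207), Slc2a1 on the plus strand (chr4:119108495-119108744) and Hk2 on the minus strand (chr6:82774455-82774704), each ending at the base before the start.
Ldha: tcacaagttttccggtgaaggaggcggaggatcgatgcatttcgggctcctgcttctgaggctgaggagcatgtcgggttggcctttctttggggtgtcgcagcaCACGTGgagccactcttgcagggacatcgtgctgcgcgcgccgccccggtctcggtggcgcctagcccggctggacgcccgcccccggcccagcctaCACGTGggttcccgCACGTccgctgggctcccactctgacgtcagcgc
Ldhb: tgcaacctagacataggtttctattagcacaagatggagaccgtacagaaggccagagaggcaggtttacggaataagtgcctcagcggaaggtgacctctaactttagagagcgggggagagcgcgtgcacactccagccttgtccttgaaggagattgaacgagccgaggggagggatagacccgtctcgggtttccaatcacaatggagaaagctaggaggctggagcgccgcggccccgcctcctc
Slc2a1: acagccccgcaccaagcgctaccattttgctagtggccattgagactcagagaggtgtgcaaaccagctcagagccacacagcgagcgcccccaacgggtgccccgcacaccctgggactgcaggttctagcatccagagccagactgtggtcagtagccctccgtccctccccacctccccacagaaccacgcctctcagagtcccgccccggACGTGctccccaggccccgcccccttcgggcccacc
Hk2: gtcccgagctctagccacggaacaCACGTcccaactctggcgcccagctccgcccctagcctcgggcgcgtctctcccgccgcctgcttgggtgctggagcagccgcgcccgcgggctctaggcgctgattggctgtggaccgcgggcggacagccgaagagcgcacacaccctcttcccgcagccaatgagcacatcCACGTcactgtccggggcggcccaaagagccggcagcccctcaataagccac
Ldha held 5 overlapping or separate matches in 3 stretches, 2 of them the palindrome CACGTG, which is found in 6.02% of windows. Slc2a1 had 1 match at 36 bases before the start, and Hk2 had matches at 226 and 52 bases. A match describes these letters and is no evidence that a factor binds.

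Slc2a1 encodes GLUT1, the widely expressed glucose transporter that is abundant on human but not on adult mouse red cells. Its level was highest in NKmature (9.64 and 9.71), next in IgM+SP (9.22 and 9.06) and then in LTHSC (8.61 and 8.43), each apart from the next group in order; PreB replicates 3 and 4 (8.53 and 8.69) also reached the LTHSC level. From GM (8.08) down to ETP (7.11) the group means lay close, and 8 of the neighbouring pairs had overlapping arrays. The 4 MkE arrays stood lower, at 6.36, 6.50, 6.20 and 6.29. The erythroid groups formed a separate bottom, with 3.66, 3.44 and 4.07 in PreCFUE, 3.23, 3.29 and 3.68 in CFUE, and 2.71, 3.21 and 2.71 in ProE, and 8 of these 9 arrays lay below 3.89. Since these levels lie below the median of all values, where the log2 scale is compressed, folds against the erythroid groups may be understated.

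The drop of Slc2a1 from MkE to PreCFUE was 2.61 ± 0.36 log2 units (SE; adjusted p = 1.1e-06), or 6.12-fold, and all 7 arrays of these groups shared the Xist class. Its 3 probe sets gave -2.61 to -0.33 here, and their mean gave -1.30 (adjusted p = 0.00017). MkP (7.81, 7.79 and 7.65) was 1.42 ± 0.36 higher than MkE (adjusted p = 0.003) in the same class. Against the mean of CFUE and ProE, the mean of the mature lymphocyte groups IgM+SP, CD4 and NKmature was 5.81 ± 0.27 higher (adjusted p = 1.8e-20), or 56.0-fold, with no overlap, and 4.05 to 5.89 over the alternatives. NKmature stood 1.99 ± 0.47 above CLP (adjusted p = 0.00054). MkE lay 2.19 ± 0.41 below LTHSC (adjusted p = 6.3e-05) and by -0.18 (adjusted p = 0.79) with the sex class as a block, in a pair that shares no class.

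Within PreB, Slc2a1 split: replicates 1 and 2 read 6.63 and 6.57, and replicates 3 and 4 read 8.53 and 8.69. The same pairs differ in the late neutrophil list and in sex class. IgM+SP exceeded PreB by 1.54 ± 0.41 (adjusted p = 0.006) over all arrays, and by 0.54 (adjusted p = 0.42) against the PreB arrays of its own class. Without IgM+SP replicate 1 the call was also lost. The ProB arrays also lay apart, at 8.18 and 6.23.

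Slc2a3 encodes GLUT3, a transporter of high affinity for glucose. It had its highest level in LTHSC (10.84 and 10.68) and its lowest in GMP (6.82, 6.92 and 6.68), and neither overlapped with its neighbour. Unlike Slc2a1 it stayed high along the red cell path, with means of 9.15 in MkE and 9.01 in PreCFUE, while CFUE read 9.18, 8.97 and 9.10 and ProE 8.26, 8.37 and 8.52. GMP was 1.99 ± 0.25 below LMPP (adjusted p = 6.9e-08) and differed from MkE by -2.34 ± 0.27 (adjusted p = 4.2e-09), and by -1.06 and -1.12 when all probe sets were averaged. GM, at 8.52 and 8.85, was 1.88 ± 0.32 above GMP (adjusted p = 4.5e-05), and 0.89 above it when all probe sets were averaged, which is under the 2-fold limit.

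STHSC (9.35 and 10) lay 1.08 ± 0.35 below LTHSC for Slc2a3 (adjusted p = 0.042), a call lost when LTHSC replicate 1, LTHSC replicate 2 or STHSC replicate 1 was left out (range -1.41 to -0.76). The difference of MkE from LTHSC, -1.61 ± 0.30 (adjusted p = 5.9e-05), became -0.03 (adjusted p = 0.95) with the sex class as a block. ProB exceeded CLP by 2.16 ± 0.35 (adjusted p = 4.7e-06), and by 1.02 with all probe sets averaged. NKmature exceeded CLP by 1.05 ± 0.35 (adjusted p = 0.0098). The NKmature call was lost without CLP replicate 2 (0.86), with all probe sets averaged (0.52) and with quantile normalization applied again. Its lowest alternative value was 0.27. In PreB the arrays again split, at 7.11 and 7.47 against 8.68 and 9.06, and the excess of IgM+SP, 1.07 ± 0.30 (adjusted p = 0.0092), overlapped and was 0.27 (adjusted p = 0.58) within 1 sex class. Of the 4 Slc2a3 probe sets, 2 stayed below 3.89 in every group mean, and the second bright one ranked the groups alike (r = 0.98 over 17 group means). Both bright probe sets are of types that may bind related transcripts, and the 2 dim ones are not, so this likeness is no independent check.

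The transporters therefore moved unequally, which the per-array difference of their log2 levels tests directly. Slc2a1 relative to Slc2a3 dropped by 2.47 ± 0.29 from MkE to PreCFUE (adjusted p = 4.8e-08), rose by 3.32 ± 0.29 from MkE to GMP (adjusted p = 8.3e-12), and was 5.45 ± 0.22 higher in mature lymphocytes than in erythroid cells (adjusted p = 2e-22). With all probe sets averaged, the changes from MkE were -1.28 to PreCFUE and 1.83 to GMP. In all, 7 of 18 comparisons were called for this ratio. Since levels of different probe sets cannot be set against each other, these values show unequal change and not which transporter is the more abundant.

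Hk1, the widely expressed hexokinase that binds mitochondria, had high levels along the red cell path and in LTHSC (mean 9.97, the third of the order). Its MkE arrays read 9.94, 10.22, 10.86 and 9.99, PreCFUE 10, 10.63 and 10.01, CFUE 9.91, 9.84 and 9.58, and ProE 9.81, 10.02 and 9.70. The lowest means were in lymphoid groups, with PreB at 7.34, 7.19, 6.47 and 6.70. The order was gradual, however: 15 of 16 neighbouring pairs overlapped, the exception being CD4 (8.68 and 8.60) over GMP (7.81, 7.82 and 8.0). LTHSC arrays themselves differed, at 9.27 and 10.66, as did STHSC at 8.70 and 10.36 and CLP at 8.25 and 6.54. A second, dimmer Hk1 probe set (r = 0.83 over the group means) was highest in LTHSC, and MkE minus LTHSC was -1.24 by it and 0.29 by the standing one, which was not called.

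GMP was 2.38 ± 0.33 lower than MkE for Hk1 (adjusted p = 3.6e-07), or 5.19-fold, and mature lymphocytes were 1.53 ± 0.25 lower than erythroid cells (adjusted p = 1.9e-06). GMP was 1.06 ± 0.32 below LMPP (adjusted p = 0.008), just past the 2-fold limit, and the call was lost without LMPP replicate 1 or 2. ETP was 1.36 ± 0.32 below LMPP (adjusted p = 0.0012), a call lost within the Eif2s3y class (-1.30, adjusted p = 0.092). CLP was 1.54 ± 0.36 below LMPP (adjusted p = 0.00086), but 0.68 below it without CLP replicate 2. That call was also lost with all probe sets averaged (-1.12, adjusted p = 0.054). Without CLP replicate 2 the call was also lost for the excess of NKmature over CLP, 1.62 ± 0.43 (adjusted p = 0.0018) with it and 0.76 without. The NKmature call was lost, too, with all probe sets averaged (0.95, adjusted p = 0.14), with quantile normalization applied again and with NKmature and CLP fitted alone. CD4 was 1.06 ± 0.40 above ETP (adjusted p = 0.032) and 0.06 (adjusted p = 0.96) with the sex class as a block; leaving out CD4 replicate 1, CD4 replicate 2 or ETP replicate 2 also ended the call.

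Hk2, the hexokinase known to be induced by insulin, growth factors and hypoxia, had its maximum in GMP (9.09, 9.04 and 8.88), above GM (7.87 and 7.94) without overlap. A broad middle ran from ETP (7.86, 7.29 and 7.52) to IgM+SP (7.21 and 7.03), where neighbours overlapped. At the bottom were CFUE (4.45, 4.20 and 4.62), CD4 (4.12 and 3.42) and ProE (3.49, 4.06 and 3.11), the last pair with group means under 3.89. The red cell path lost Hk2 late, with 6.05, 6.01 and 6.53 still in PreCFUE: CFUE was 1.77 ± 0.27 lower (adjusted p = 1.6e-05), or 3.41-fold.

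The largest Hk2 difference among the comparisons was between CD4 and ETP, -3.79 ± 0.30 (adjusted p = 5.1e-13). The CD4 mean of 3.77 lies below 3.89, so the fold is uncertain there and may be understated, and alternatives ran from -4.14 to -2.58. GMP exceeded MkE by 2.48 ± 0.25 (adjusted p = 3.2e-10; 1.23 with the class block) and LMPP by 1.73 ± 0.24 (adjusted p = 4.4e-07). PreB, ProB and NKmature each lay below CLP, by -2.01 ± 0.29, -1.92 ± 0.33 and -1.83 ± 0.33 (adjusted p = 2.7e-07, 1.3e-05 and 1.6e-05); these 3 comparisons share the CLP arrays, and the ProB value became -0.67 (adjusted p = 0.18) with the sex class as a block. IgM+SP was 1.86 ± 0.29 above PreB (adjusted p = 7.4e-06), a call kept within 1 sex class and lost when the 2 groups were fitted alone (adjusted p = 0.096). GM was 1.10 ± 0.30 below GMP (adjusted p = 0.012), and the value was 0.15 (adjusted p = 0.84) with the class block, though the groups share no class; the call was also lost without GM replicate 1 or 2.

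Hk3 is known as the hexokinase of myeloid cells, and its level stood out in the myeloid groups. GMP arrays read 10.67, 10.82 and 10.69 and GM arrays 9.99 and 9.75, with no other array above the 8.63 of LMPP replicate 3. Below them came STHSC (8.01 and 7.60), LMPP (8.15, 7.91, 8.63, 7.03 and 6.80), LTHSC (6.98 and 7.64) and NKmature (7.14 and 6.95), which overlapped in sequence. Then the means ran without a gap from IgM+SP at 6.18 down to CFUE at 4.94. GMP stood 5.25 ± 0.26 above MkE (adjusted p = 7.6e-19), or 38.0-fold, the largest of any member among the comparisons of single groups, and 3.02 ± 0.25 above LMPP (adjusted p = 2.4e-12). LTHSC exceeded MkE, whose arrays read 5.77, 5.48, 5.27 and 5.38, by 1.83 ± 0.29 (adjusted p = 5.8e-06). On leaving LMPP for a lymphoid group the level dropped by 1.98 ± 0.28 in CLP (adjusted p = 7.9e-07) and by 1.74 ± 0.25 in ETP (adjusted p = 1.6e-06), values that share the LMPP arrays.

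NKmature exceeded CLP by 1.32 ± 0.34 for Hk3 (adjusted p = 0.0012), and by 0.84 with all probe sets averaged, which is under the 2-fold limit. Both NKmature arrays were high in the late neutrophil list. Mature lymphocytes exceeded erythroid cells by 1.04 ± 0.20 (adjusted p = 1.8e-05) with overlap, a value that slipped under 2-fold on leaving out CFUE replicate 1, IgM+SP replicate 1 or ProE replicate 2 and under 3 other alternatives (lowest 0.68). The probe set that stands for Hk3 is of the type that may bind related transcripts; the other one correlated with it at r = 0.95 over the group means and was highest in GM.

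Put against each other, the hexokinases changed unequally in many comparisons. Hk1 relative to Hk2 was called in 12 of 18 comparisons, Hk2 relative to Hk3 in 11 and Hk1 relative to Hk3 in 6. With the sex class as a block, Hk1 relative to Hk2 was no longer called in MkE against LTHSC (-0.65) or GM against GMP (0.06). The same held for ProB (0.28) and PreB (0.57) against CLP and for IgM+SP against PreB (-0.65). Hk1 relative to Hk3 lost its call in MkE against LTHSC (1.01), GM against GMP (0.63) and CD4 against ETP (0.44). Hk2 relative to Hk3 lost its call in IgM+SP against PreB (1.06). The widest change was that of Hk1 relative to Hk3 between GMP and MkE, -7.63 ± 0.42 (adjusted p = 1.9e-17), or 197-fold. From ETP to CD4, Hk1 gained 4.85 ± 0.51 on Hk2 (adjusted p = 4.9e-10) and Hk2 relative to Hk3 changed by -3.24 ± 0.37 (adjusted p = 4.4e-09). With the sex class as a block these were 2.65 and -2.21, in a pair that shares no class. The CD4 mean of Hk2, 3.77, lies below 3.89, so both folds are uncertain. From LMPP to ETP the change of Hk2 relative to Hk3 went the other way, a gain of 2.01 ± 0.30 (adjusted p = 3.1e-06).

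**Figure D2:**
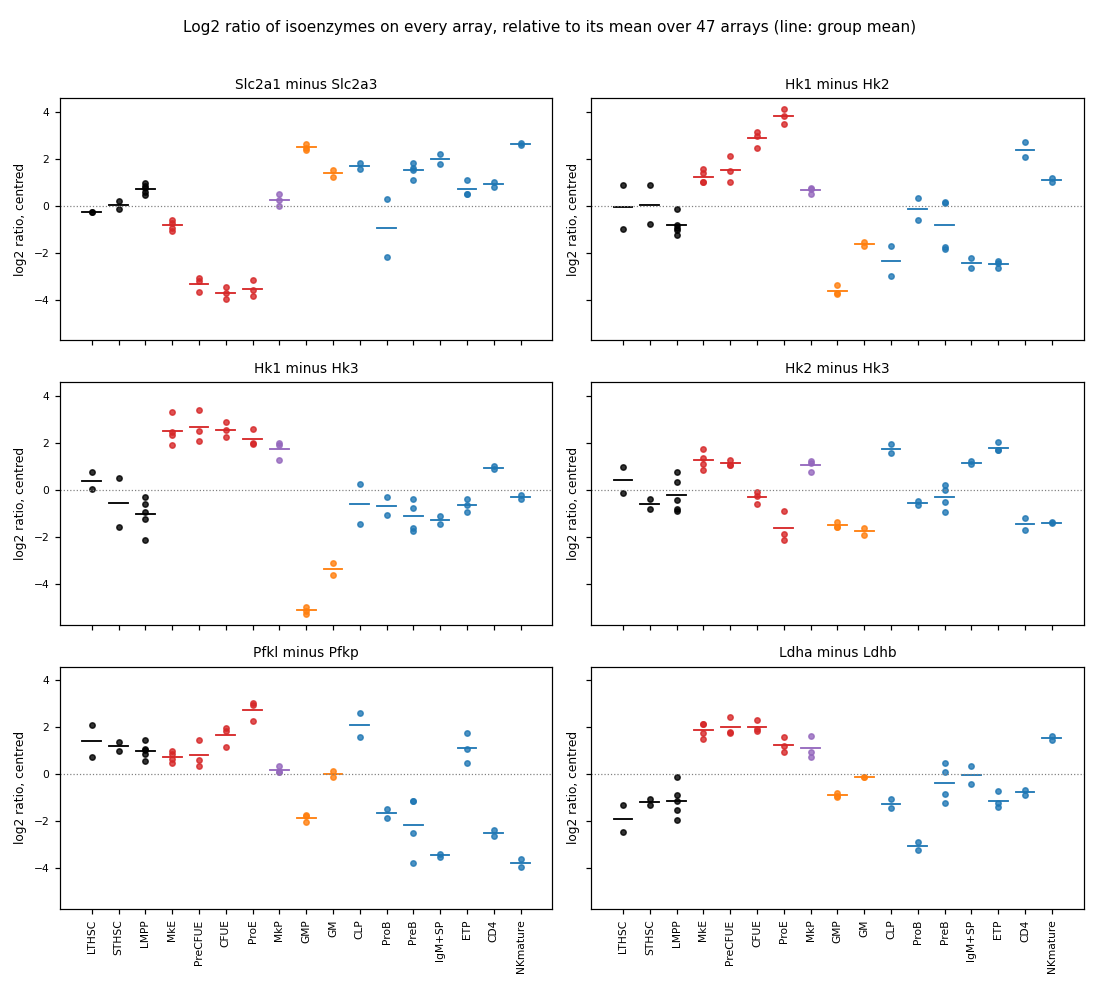
Per-array log2 difference between isoenzymes in the 17 groups (horizontal axes), centred on the mean of all arrays, with 1 point per array and a bar at each group mean. Slc2a1 relative to Slc2a3 is lowest in PreCFUE, CFUE and ProE, Hk1 relative to Hk3 is lowest in GMP, and Ldha relative to Ldhb is higher in MkE than in LTHSC.

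Phosphofructokinase is a tetramer of subunits named after liver (Pfkl), platelet (Pfkp) and muscle (Pfkm). Pfkl was highest in LTHSC (10.86 and 10.41), then STHSC (9.82 and 9.71), without overlap between them or with LMPP (9.70, 9.66, 8.90, 8.75 and 8.68). The lowest mean was that of IgM+SP (6.10 and 6.21), below NKmature (6.61 and 6.97). In between, neighbours overlapped throughout. MkE was 2.22 ± 0.39 below LTHSC (adjusted p = 2.7e-05), with alternatives from -4.13 to -1.75. GMP was 1.68 ± 0.33 below LMPP (adjusted p = 9.6e-05) and ETP 1.5 ± 0.33 below it (adjusted p = 0.00064), the latter lost within the class that has both transcripts (-1.11, adjusted p = 0.05).

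Several Pfkl calls rested on few arrays. PreB read 7.76 and 7.85 in replicates 1 and 2 and 5.44 and 6.34 in replicates 3 and 4; its difference from CLP, -1.36 ± 0.39 (adjusted p = 0.0032), became -0.41 (adjusted p = 0.26) with replicates 1 and 2 alone, and was lost without PreB replicate 3 or CLP replicate 1. NKmature lay 1.42 ± 0.45 below CLP (adjusted p = 0.0074), lost without CLP replicate 1 or NKmature replicate 1 and with the class block (-0.88). GM was 1.46 ± 0.41 above GMP (adjusted p = 0.015), and the value was -0.45 (adjusted p = 0.52) with the class block, though the groups share no class; leaving out GM replicate 1, GM replicate 2 or GMP replicate 3 also ended that call. Mature lymphocytes were 1.29 ± 0.26 below erythroid cells (adjusted p = 5.9e-05), with overlap; the class block gave -0.79, and probe sets disagreed (-1.29 to 0.63). The odd probe set out correlated with the standing one at r = 0.06, while the third followed it at r = 0.98.

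Pfkp was highest in NKmature (9.54 and 9.57) and CD4 (9.36 and 9.51), then in the arrays labelled ProB (8.85 and 9.0) and IgM+SP (8.47 and 8.71), each group apart from the next. Its lowest levels were in CLP (5.88 and 4.34), ETP (6.06, 5.26 and 5.21) and ProE (4.40, 4.08 and 4.08). NKmature exceeded CLP by 4.44 ± 0.35 (adjusted p = 5.3e-13), or 21.8-fold, ProB exceeded CLP by 3.81 ± 0.35 (adjusted p = 4.8e-11), and PreB exceeded CLP by 2.87 ± 0.30 (adjusted p = 5.7e-10), all against the same CLP arrays. CD4 exceeded ETP by 3.92 ± 0.32 (adjusted p = 9.5e-13), or 15.1-fold. These lymphoid progenitors had less Pfkp than LMPP (7.60, 7.18, 7.30, 6.70 and 6.79), CLP by -2.01 ± 0.29 (adjusted p = 1.1e-06) and ETP by -1.60 ± 0.26 (adjusted p = 1.1e-05).

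Along the red cell path Pfkp stepped down, from 7.26, 6.69 and 6.90 in PreCFUE to 5.72, 6.34 and 5.61 in CFUE and on to ProE. The second step, between groups that share no class, was -1.70 ± 0.29 (adjusted p = 6.7e-05). With all probe sets averaged it was -0.64 and not called. The first was -1.06 ± 0.29 (adjusted p = 0.021) and was lost when CFUE replicate 1, CFUE replicate 3, PreCFUE replicate 1 or PreCFUE replicate 3 was left out (range -1.29 to -0.90). Mature lymphocytes exceeded erythroid cells by 4.15 ± 0.20 (adjusted p = 5e-20), or 17.8-fold. In the myeloid direction, GMP (8.41, 8.34 and 8.15) exceeded MkE by 1.65 ± 0.27 (adjusted p = 5.5e-06) and LMPP by 1.18 ± 0.26 (adjusted p = 0.00033), the latter being 0.91 within the Eif2s3y class and 0.94 with LMPP replicates 1 to 3 alone. MkE was 1.55 ± 0.30 below LTHSC (adjusted p = 0.00011). The other Pfkp probe sets were dim, one above 3.89 in 1 group and one in 6, and averaging them in ended the calls of Pfkp in 8 comparisons, among them CLP and ETP against LMPP (-0.49 and -0.48). The same average left 2.07 for CD4 over ETP, 1.78 for NKmature over CLP and 2.27 for mature lymphocytes over erythroid cells.

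Pfkl relative to Pfkp was called in 10 of 18 comparisons. From CLP to NKmature it dropped by 5.86 ± 0.52 (adjusted p = 1.2e-11), or 58.3-fold, from CLP to PreB by 4.23 ± 0.45 (adjusted p = 7.4e-10), and from ETP to CD4 by 3.61 ± 0.48 (adjusted p = 9.3e-08). Mature lymphocytes differed from erythroid cells by -5.44 ± 0.30 (adjusted p = 2.7e-18). From LMPP to GMP it dropped by 2.87 ± 0.38 (adjusted p = 1.7e-07), with Pfkl lower and Pfkp higher. Averaging all probe sets gave -3.14 from CLP to NKmature, -1.71 from CLP to PreB and -1.41 from ETP to CD4.

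Pgk1, which makes the first ATP of glycolysis, was bright in every array, from 9.96 to 12.19. GMP (12.15, 12.14 and 12.19) was highest, above NKmature (11.79 and 11.83) and GM (11.81 and 11.77), which overlapped. CLP had the lowest mean, 10.51, from 2 arrays of 11.06 and 9.96. Calls were few: GMP exceeded MkE by 1.14 ± 0.17 (adjusted p = 6.7e-07), 0.93 with the class block, and NKmature exceeded CLP by 1.30 ± 0.22 (adjusted p = 4.4e-06), 0.75 without CLP replicate 2. GMP was highest by the standing probe set and by one that followed it at r = 0.99, both of the type that may bind related transcripts. The remaining probe set, which is not of that type, was highest in LTHSC and followed the standing one at r = 0.52. All 3 put GMP above MkE, by 1.05 to 1.14.

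Ldha and Ldhb encode the subunits of lactate dehydrogenase; a tetramer rich in the Ldha subunit favours making lactate, and one rich in Ldhb is typical of tissues that oxidise it. Ldha was highest in CD4 (11.28 and 11.49) and LTHSC (10.66 and 11.42) and stayed high along the red cell path, with 11.39, 10.73 and 10.59 in PreCFUE and 10.03, 9.95 and 9.99 in ProE. The lowest groups for Ldha were lymphoid: IgM+SP (9.04 and 8.61), PreB (9.35, 9.36, 8.04 and 8.12), ETP (9.03, 8.37 and 8.32) and CLP (8.46 and 8.38), which overlapped in order; PreB replicates 1 and 2 also passed the lower ProB array (9.09).

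CLP had 1.65 ± 0.32 less Ldha than LMPP (adjusted p = 9.5e-05) and ETP 1.5 ± 0.28 less (adjusted p = 0.00011). CD4 had 2.81 ± 0.35 more than ETP (adjusted p = 3.2e-08), or 7.02-fold, reduced to 1.01 (adjusted p = 0.058) with the class block, and NKmature 1.57 ± 0.39 more than CLP (adjusted p = 0.00079). ProB had 1.13 ± 0.39 more than CLP (adjusted p = 0.017), a call lost without CLP replicate 1, CLP replicate 2 or ProB replicate 2, and -0.15 (adjusted p = 0.82) with the class block.

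For Ldhb, LTHSC (9.93 and 9.55) and ProB (9.14 and 9.70) were highest and overlapped, followed without overlap by CD4 (8.96 and 8.99), STHSC (8.70 and 8.91) and LMPP (8.57, 7.85, 8.12, 7.65 and 7.85). PreB, the groups of the red cell path, IgM+SP and NKmature (5.33 and 5.20) lay together at the bottom. MkE, at 5.66, 5.98, 5.35 and 5.52, was 4.11 ± 0.22 below LTHSC (adjusted p = 3.1e-17), or 17.3-fold, and every alternative kept it between -4.85 and -3.93. GMP (7.61, 7.51 and 7.37) was 1.87 ± 0.20 above MkE (adjusted p = 6.6e-10).

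Among lymphoid groups Ldhb fell from LMPP to CLP by 1.53 ± 0.21 (adjusted p = 5.7e-07) and to ETP by 1.5 ± 0.19 (adjusted p = 1.5e-07). CD4 then stood 2.47 ± 0.23 above ETP (adjusted p = 4.8e-11), and ProB 2.94 ± 0.26 above CLP (adjusted p = 1.3e-11), whereas NKmature was 1.21 ± 0.26 below CLP (adjusted p = 0.00013), lost without CLP replicate 1 and with the class block (-0.96). The mean of Ldhb over the groups correlated at r = -0.56 with a list of dividing-cell genes, the most negative of the 10 members; that list stood at 5.08 and 7.62 in LTHSC and 5.45 and 5.56 in CD4, against 7.37 to 10.45 in the other groups, and its part in the Ldhb levels was not tested. All 4 Ldhb probe sets agreed (r = 0.95 to 0.99).

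Ldha relative to Ldhb was called in 5 comparisons. It rose by 3.76 ± 0.38 from LTHSC to MkE (adjusted p = 4.4e-10), or 13.5-fold, and GMP differed from MkE by -2.77 ± 0.33 (adjusted p = 1.6e-08). With the class block these were 2.46 and -1.48. It rose by 2.78 ± 0.44 from CLP to NKmature (adjusted p = 1.7e-06) and dropped by 1.81 ± 0.44 from CLP to the ProB arrays (adjusted p = 0.00095). The mean of the mature lymphocyte groups differed from that of the erythroid groups by -1.39 ± 0.25 (adjusted p = 1.1e-05), with overlap, a call lost with the class block (-0.99). From ETP to CD4 both subunits rose and the ratio was not called (0.35).

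For counts over the members, a call needs an adjusted p below 0.05 over all 13949 genes and at least a 2-fold difference. Between STHSC and LTHSC 1 member was called lower, against 6.81% of all genes. Between LMPP and STHSC limma called 0 of 10, against 5.42% of genes, although 3 members had an unadjusted p below 0.05, and the members' median difference was -0.52 (0.01 over all genes). From LTHSC to MkE 6 fell and none rose, where 19.3% of genes were called and the median of the members was -1.58 against -0.04 over all genes. These were Slc2a1, Slc2a3, Hk3, Pfkl, Pfkp and Ldhb.

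On the red cell path the counts were small. PreCFUE against MkE had 1 member lower (Slc2a1; background 7.31%), CFUE against PreCFUE 2 lower (Hk2 and Pfkp; 2.65%), and ProE against CFUE 1 lower (Pfkp; 4.62%). MkP against MkE had 1 member higher (Slc2a1; 11.5%). No member was called higher in any of the 3 steps from MkE to ProE.

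In the myeloid direction, GMP against LMPP had 3 higher and 3 lower (16.8% of genes), GMP against MkE 5 higher and 2 lower (15.6%), and GM against GMP 2 higher and 1 lower (7.95%). Hk2, Hk3 and Pfkp were the ones higher in GMP than in LMPP, and Slc2a3, Hk1 and Pfkl the ones lower. The median member difference was -0.26 in the first comparison and 1.06 in the second, against -0.03 over all genes in both.

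Both lymphoid progenitors had members lower than LMPP and none higher: CLP had 5 (21.2% of genes) and ETP had 6 (11.9%), with medians of -1.23 and -1.43 against -0.10 and -0.07. Hk1, Hk3, Pfkp, Ldha and Ldhb were among them in both, and ETP added Pfkl. With LMPP replicates 1 to 3 alone the counts were 7 for CLP and 6 for ETP. In the same comparisons 7 of 7 genes of the dividing-cell list were called lower in CLP (median -1.99) and 6 of 7 in ETP (median -1.77). Both CLP arrays had the highest array median, 16.9, and the lowest upper quartiles, 50.2 and 50.7; the part of either in the members' differences was not tested. Counts for the other lymphoid comparisons were mixed. ProB against CLP had 4 higher and 1 lower (29.5%), PreB against CLP 1 higher and 2 lower (35.5%), IgM+SP against PreB 3 higher (12.8%), CD4 against ETP 4 higher and 1 lower (26.5%), and NKmature against CLP 7 higher and 3 lower (41.3%), of which 5 calls remained with quantile normalization applied again. Mature lymphocytes against erythroid cells had 4 higher and 2 lower (28.1%). Of the isoenzymes, Hk2 was lower than in the progenitor in CD4, NKmature, PreB and ProB, while Pfkp was higher in all 4. NKmature, PreB and ProB share the CLP arrays. The ProB call for Hk2 was lost with the class block (-0.67), and the PreB call for Pfkp with all probe sets averaged (0.97). IgM+SP was not compared with CLP. Its Hk2 mean was 7.12 against 7.27 in CLP, and its Pfkp mean 8.59 against 5.11.

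**Figure D3:**
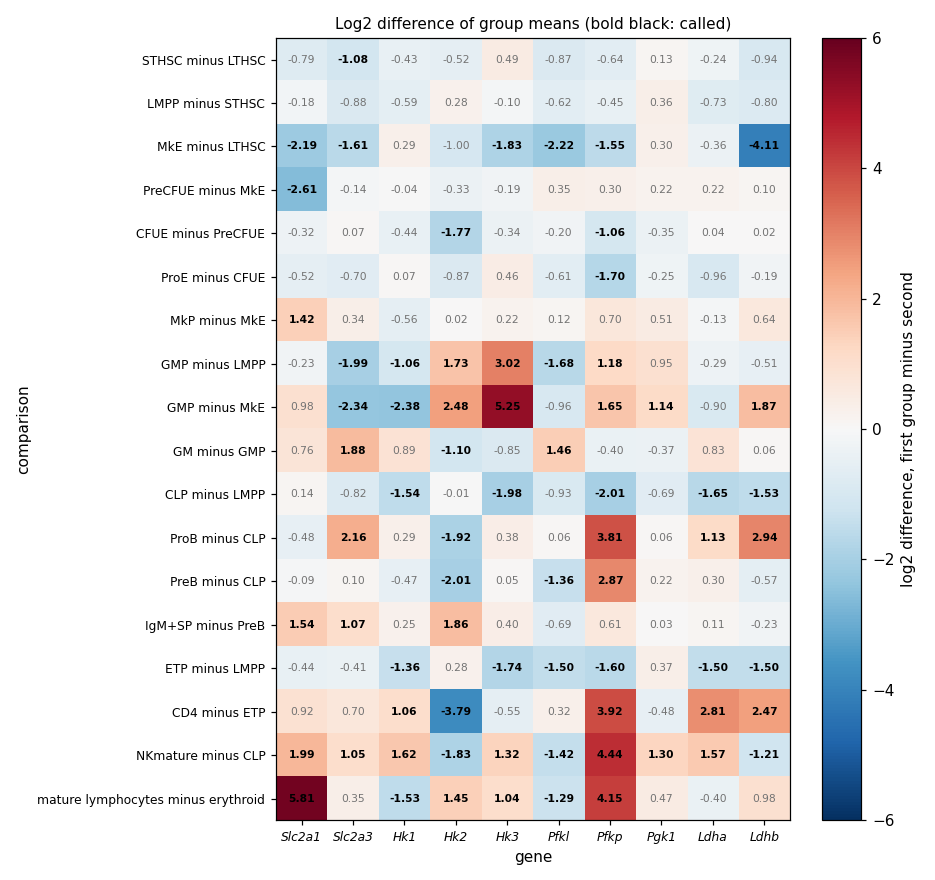
Log2 differences of the 10 genes in the 18 comparisons, as first group minus second, with calls at adjusted p below 0.05 and at least 2-fold marked. CLP and ETP against LMPP hold lower members and no higher one, and NKmature against CLP has all 10 called, 7 higher and 3 lower.

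The other genes of the pathway came from lists of 48 symbols, of which 42 are on the array and 37 were detected; 36 of these 37 differed among the groups by the F-test, as did 90.3% of all genes. The pyruvate kinases split most sharply. Pkm, the form of most tissues, read 10.39 and 9.93 in LTHSC, 6.05, 5.85, 6.90 and 6.67 in MkE, and 3.86, 4.14 and 3.88 in PreCFUE. Pklr, the form of liver and red cells, read 5.71, 6.12, 5.80 and 6.08 in MkE and 8.59, 8.91 and 8.65 in PreCFUE. From MkE to PreCFUE Pklr rose by 2.79 ± 0.22 (adjusted p = 1.7e-12) and Pkm fell by 2.41 ± 0.32, at the step where Slc2a1 also fell. In mature lymphocytes against erythroid cells, which share no class, Pklr was lower (-5.14 ± 0.16, adjusted p = 1.2e-25) and Pkm higher (5.14 ± 0.24, adjusted p = 1.3e-20). Pfkm (-3.78) and Slc16a1 (-3.60), a transporter of lactate and pyruvate, were lower. The folds of Pklr and Pkm are uncertain, since their lower means lay below 3.89. These were 3.56, 3.66 and 3.38 for Pklr in IgM+SP, CD4 and NKmature, and 3.8 and 3.44 for Pkm in CFUE and ProE. Of the 37, 7 were higher and 8 lower in that comparison (28.1% of all genes were called), and 3 higher and 2 lower from MkE to PreCFUE (7.31%).

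In these counts the share of all genes called stands in brackets. Against LTHSC, STHSC had 4 pathway genes lower (6.81%), led by Txnip (-2.17), which restrains glucose uptake, and the aldolase Aldoc (-1.55). LMPP against STHSC had 2 higher, among them the pyruvate dehydrogenase kinase Pdk1 (1.70), and 1 lower (5.42%). MkE had 3 higher and 5 lower than LTHSC (19.3%), with Aldoc at -4.12 and Pkm at -3.79. The MkE mean of Aldoc, 3.88, lay just below 3.89, so its fold is uncertain. CFUE against PreCFUE had none in either direction by limma's test (2.65%), with 7 at an unadjusted p below 0.05. ProE against CFUE had 2 lower (4.62%), Myc at -1.89 and the phosphoglycerate mutase Pgam1 at -1.44, and MkP against MkE had 1 higher and 4 lower (11.5%), with Pkm at 1.70.

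GMP had 8 higher and 2 lower than LMPP (16.8%), led by Tigar (2.86), a phosphatase that lowers glycolytic flux, and the oxygen sensor Egln3 (2.28). It had 10 higher and 4 lower than MkE (15.6%), again with Egln3 (5.74) and Tigar (3.68) first. The MkE means of Egln3 and Tigar, 3.58 and 3.79, lay below 3.89, so both folds are uncertain. GM against GMP had 2 higher and 2 lower (7.95%), with Tigar at -2.27. Among lymphoid groups, CLP had 11 lower and none higher than LMPP (21.2%), led by Dld (-3.18) and the kinase Pdk3 (-2.59) of the pyruvate dehydrogenase system. The CLP mean of Dld, 3.83, lay below 3.89, so its fold is uncertain. ETP had 2 higher and 3 lower than LMPP (11.9%), with Pkm at -1.78 and Gapdh at -1.23.

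Of later lymphoid groups, ProB had 12 higher and 5 lower than CLP (29.5%), first Bpgm (3.47), which makes bisphosphoglycerate, and the transporter Slc2a6 (3.13). PreB had 11 higher and 6 lower (35.5%), with Dld at 3.56 and Myc at -3.22, and IgM+SP had 2 higher and 3 lower than PreB (12.8%), with Myc at 2.83 and Slc16a1 at -2.56. CD4 had 4 higher and 4 lower than ETP (26.5%), with Pkm at 2.45 and Aldoa at 2.00 beside Egln3 at -3.13. NKmature had 10 higher and 4 lower than CLP (41.3%), with Dld at 2.94 and Hif1a, the hypoxia-induced factor, at 2.75. The ProB, PreB and NKmature counts share the CLP arrays. The folds of Dld against CLP are uncertain, since its CLP mean of 3.83 lay below 3.89.

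**Figure D4:**
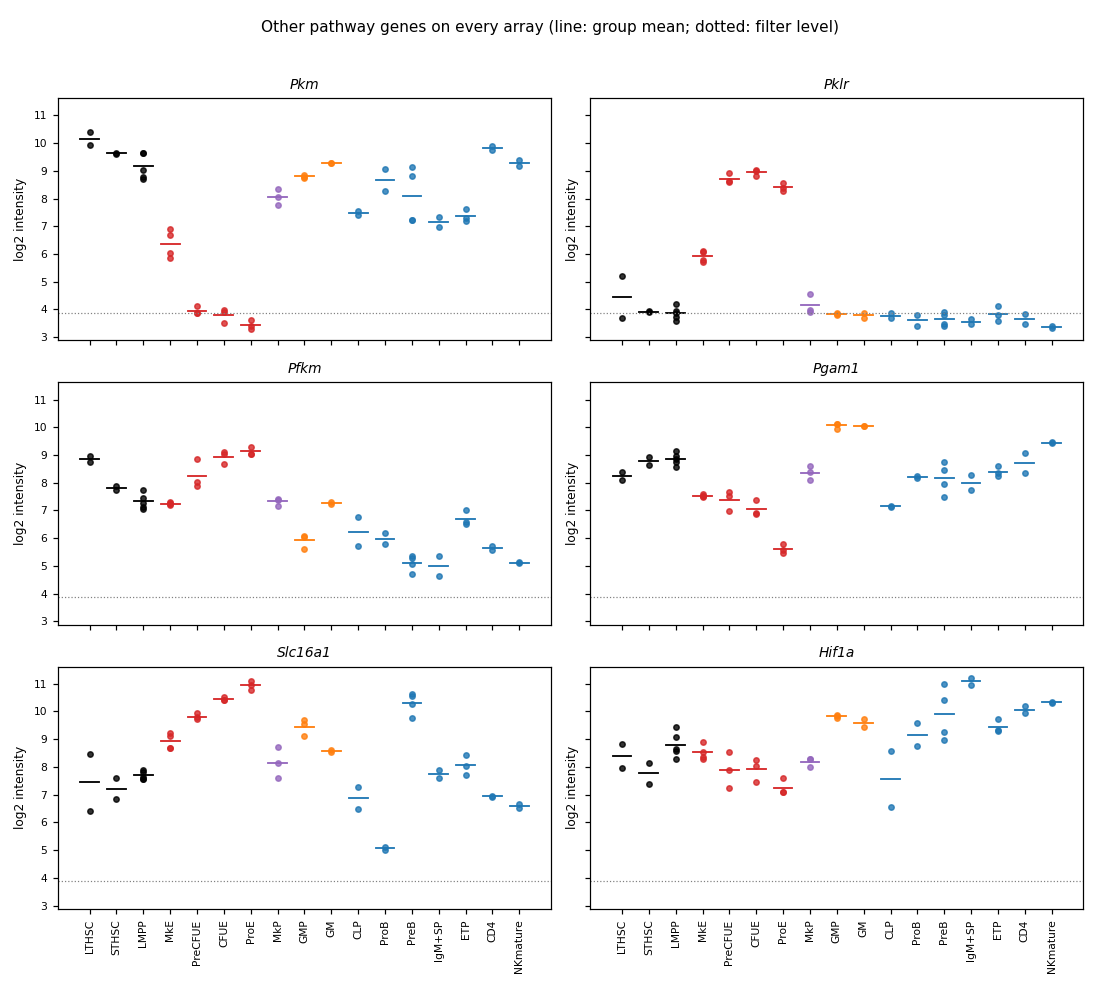
Log2 levels of 6 other pathway genes (Pkm, Pklr, Pfkm, Pgam1, Slc16a1 and Hif1a; vertical axes) in every array of the 17 groups (horizontal axes), with points, bars, dotted line and colours as for the members. Pkm is lower and Pklr higher in PreCFUE than in MkE, and Slc16a1 reaches 10.94 in ProE.

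Over the 17 group means the members did not share a single pattern. The highest correlation between members was Hk1 with Ldha (r = 0.83), then Hk2 with Hk3 (0.69) and Slc2a1 with Pfkp (0.68), and the lowest was Slc2a1 with Hk1 (-0.46). Isoenzyme pairs were low: 0.14 for the transporters, -0.15 for Pfkl with Pfkp, 0.31 for Ldha with Ldhb and -0.21 for Hk1 with Hk2. These points share arrays and scaling, and the values are descriptions. Among tested genes with a plain symbol, which leaves out clone and predicted-gene names, Slc2a1 was most like Myo1g (0.937), Mdfic (0.935) and Sla (0.933). The patterns most like Hk3 were Tmem141 (0.941), Fgd4 (0.927) and Hsd17b1 (0.927). For Ldha they were Bola2 (0.927), Polr2e (0.911) and Nob1 (0.896), and for Ldhb Tmem273 (0.904), Edem2 (0.89) and Cyp4f16 (0.885). Hk1 was nearest to Vamp5 (0.907), Pfkl to Fut10 (0.919), Pfkp to Cyba (0.891), Pgk1 to Ccnyl1 (0.884), Hk2 to Vat1 (0.874) and Slc2a3 to Zp1 (0.82). The next for Hk2 were Car9 (0.847), a carbonic anhydrase induced by hypoxia, and Ckap4 (0.842).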

How the data were processed

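The authors extracted RNA from 2000 purified cells per array, amplified it in 2 rounds, hybridised it to Affymetrix arrays and summarised the probes by RMA, per the labels' design text. What was deposited is an intensity per probe set on a linear scale, of which the log2 was taken here. Probe sets were named from the platform annotation; 34958 of 45101 carry 1 symbol.

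One limma model (limma 3.58.1, R 4.3.3) with a mean per group and 30 residual degrees of freedom was fitted to all 47 arrays. A gene was tested if 1 group mean passed the median log2 value (3.89), which 13949 of 18194 did. P-values were adjusted by Benjamini-Hochberg over all genes in a comparison. Isoenzyme ratios entered as 6 further rows (108 tests, 51 called), and ratios of other gene pairs were not tested. Of the 180 tests of members, 71 were called. With the sex class as a block, 37 of the 51 ratio calls were kept, 12 were lost and 2 were reversed. Array number limits precision. The script was tested on simulated data.

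Named genes were all 10 members, the 3 most correlated genes with a plain symbol per member, and up to 4 called pathway genes with the largest difference per comparison. Members, lists and tests were chosen with earlier results of these data known. Alternatives were another scaling, filter, probe set rule, floor, fit of the compared groups alone, replicate number and sex class as blocks, and leaving out arrays. Values within a sex class, PreB replicates 1 and 2 alone, LMPP replicates 1 to 3 alone, and the fit without the ProB arrays were chosen after seeing the data.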

Additional observations from a re-analysis of the deposited data

How the results depend on the processing

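The number of members called (of 10) changed by over 1.5 times in these settings. With the mean of all probe sets, it was 1 for CFUE against PreCFUE (2 as reported), 0 for ProE against CFUE (1), 2 for MkP against MkE (1), 1 for GM against GMP (3) and 3 for CLP against LMPP (5). With quantile normalization applied again it was 0 for STHSC against LTHSC (1), 2 for ProE against CFUE, 2 for MkP against MkE, 5 for PreB against CLP (3) and 5 for NKmature against CLP (10). With the sex class as a block it was 5 for ProE against CFUE and 1 for IgM+SP against PreB (3). Fitting the compared groups alone gave 0 for STHSC against LTHSC and 0 for IgM+SP against PreB, and the Eif2s3y arrays alone gave 1 for the latter. The sex class block reversed Hk2 (0.15) and Pfkl (-0.45) in GM against GMP, Ldha (-0.15) in ProB against CLP, Hk1 relative to Hk2 in MkE against LTHSC (-0.65, adjusted p = 0.42) and Pfkl relative to Pfkp in GM against GMP (-0.15, adjusted p = 0.90). The causes were not tested.

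Leaving out 1 array at a time gave 10 to 10 members by the F-test and these ranges of calls: 0 to 2 for STHSC against LTHSC, 0 to 0 for LMPP against STHSC, 6 to 7 for MkE against LTHSC, 1 to 1 for PreCFUE and for MkP against MkE, 1 to 2 for CFUE against PreCFUE and for ProE against CFUE, 5 to 6 for GMP against LMPP, 7 to 9 for GMP against MkE, 1 to 3 for GM against GMP, 4 to 7 for CLP against LMPP, 4 to 6 for ProB and 2 to 4 for PreB against CLP, 1 to 4 for IgM+SP against PreB, 6 to 6 for ETP against LMPP, 4 to 5 for CD4 against ETP, 7 to 10 for NKmature against CLP, 5 to 7 for mature lymphocytes against erythroid cells, and 47 to 53 of the ratio calls.

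Replicate numbers showed no general pairing of the arrays. Deviations from the group means of same-numbered arrays correlated at a median of 0.006 over 311 pairs, 53 of them over 0.1. Differently numbered arrays had a median of 0. Of the 47 arrays, 15 correlated best with their own number, and the count expected without pairing was not computed. A median over all groups cannot show whether some groups were paired. With the replicate number as a block, all 71 member calls kept their side of the threshold and 2 ratio calls were lost, Hk2 relative to Hk3 in GMP against LMPP and Pfkl relative to Pfkp in CLP against LMPP.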
